A study of Mus musculus with 6 samples.

Results

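The 10 genes described here belong to the BCL2 family, which sets whether a cell keeps its mitochondria intact or dies by apoptosis. They were taken by symbol (Mcl1, Bcl2l1, Bcl2, Bcl2l11, Bax, Bak1, Bbc3, Pmaip1, Bad and Bid), and all 10 were found among the 24346 gene symbols measured. RNA was sequenced from IgG1 plasma cells (3 libraries) and from IgM plasma cells (3 libraries) of mouse spleen. In both groups the cells descended from donor B1-8germ B cells with a congenic mark, which had been transferred into C57BL/6J wild-type mice, and the hosts had been immunized with NP-CGG in alum. B1-8 cells carry a rearranged heavy chain that favours binding of the hapten NP, and both groups stem from such donor cells. Donor plasma cells were sorted by isotype at day 7, and no label says how many mice stand behind the libraries. The design holds 1 comparison, IgG1 against IgM, which addresses how switched plasma cells differ from unswitched ones.

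The family works by direct contact between its proteins at the outer mitochondrial membrane. Pro-survival members (MCL1, BCL-XL from Bcl2l1, and BCL2) hold the pore-forming members BAX and BAK in check. BH3-only members (BIM from Bcl2l11, PUMA from Bbc3, NOXA from Pmaip1, BAD and BID) report stress or loss of growth signals by occupying the groove of the pro-survival proteins, and some also activate BAX and BAK directly. When pores form, cytochrome c escapes and the apoptosome switches on caspases. Plasma cells are known to depend on MCL1, whose supply is kept up by signals through the receptor BCMA, and BIM is a main killer of lymphocytes deprived of survival signals.

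The bases upstream of 3 start sites are shown because the RNA of Mcl1 and Bcl2l11 moved in opposite directions and because Bcl2l11 and Bbc3 shared a motif at very different RNA levels. The sequences are RefSeq's for GRCm38.p6, read 5′ to 3′ on the gene's own strand. Capitals mark matches, on either strand, to the FOXO motif GTAAACA and to the ETS motif CCGGAAG. Each stretch ends at the base before a RefSeq start site, which for Mcl1 lies 67 bases upstream of the GENCODE gene's 5′ end and for Bbc3 is one of several starts inside the GENCODE gene. The start sites were picked because their upstream bases hold the marked motifs. Bcl2l11 has another start site, at 128127575, whose window matched only the GC box among the motifs searched.
Mcl1, chr3:95658471-95658720, plus strand: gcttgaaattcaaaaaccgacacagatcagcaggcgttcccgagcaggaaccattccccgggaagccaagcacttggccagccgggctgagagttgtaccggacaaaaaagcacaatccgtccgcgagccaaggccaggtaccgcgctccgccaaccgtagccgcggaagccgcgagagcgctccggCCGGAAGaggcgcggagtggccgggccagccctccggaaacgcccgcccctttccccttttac
Bcl2l11, chr2:128125788-128126037, plus strand: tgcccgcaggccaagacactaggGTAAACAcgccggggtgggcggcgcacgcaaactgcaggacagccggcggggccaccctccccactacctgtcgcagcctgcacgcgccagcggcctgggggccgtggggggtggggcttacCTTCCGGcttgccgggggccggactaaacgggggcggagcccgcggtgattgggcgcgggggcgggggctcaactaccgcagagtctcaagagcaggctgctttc
Bbc3, chr7:16310011-16310260, plus strand: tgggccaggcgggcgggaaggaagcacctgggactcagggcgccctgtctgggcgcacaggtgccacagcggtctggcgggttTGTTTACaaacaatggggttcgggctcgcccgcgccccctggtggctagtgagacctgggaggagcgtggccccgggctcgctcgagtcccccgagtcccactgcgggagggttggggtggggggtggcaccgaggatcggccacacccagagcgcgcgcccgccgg

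In windows from 250 bases before to 50 after a start site, the FOXO motif was present in 2 of 15 windows of the 9 members that had one, once in Bcl2l11 and once in Bbc3. Counted from the start site, with -1 the base before it, the matches began at position -227 in Bcl2l11 and at -167 in Bbc3. In all 32851 windows of that length 3.6% held it. The ETS motif was in 3 of the 15 member windows, against 8.9% of all windows, and these belonged to Mcl1 (at -63), Bcl2l11 (at -105) and Bcl2l1 (35 bases into the transcript, not shown). The other 6 motifs were searched on both strands. AP-1 (TGANTCA), CREB (TGACGTCA) and STAT (TTCNNNGAA) had 0 matches in the member windows and were in 7.8%, 1.8% and 8.3% of all windows. The E-box CACGTG was in the windows of Bax and Bbc3 (7.2% of all windows), a kappa B motif in those of Bcl2l1 and Bbc3 (8.5%), and the GC box GGGCGG in 10 of the 15 (35.7%). Some GC boxes overlapped one another. These are matches of letters and not measured binding sites.

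Values are FPKM, which scale fragments by transcript length and library size, so levels may be set side by side between genes, within the limit that coverage of long transcripts differed between the groups. Low values stepped in units that put the depth at about 15500000 fragments for each IgG1 library and 16600000 to 17800000 for the IgM libraries. Differences are of log2(FPKM + 1), IgG1 minus IgM, from limma over the 9087 genes that reached 1 FPKM in 3 or more libraries, and adjusted p-values are Benjamini-Hochberg values over those genes. Of these genes 387 were higher and 160 lower in IgG1, which is 6.02% in all. Higher calls made up 70.7%. That share became 80.6% with medians centred, 48.5% with quantiles equalised and 31.1% with libraries rescaled without Jchain, which put the median of all genes at -0.25 in place of -0.05. Pairs of IgG1 libraries had a Pearson r of 0.930 to 0.949, and pairs of IgM libraries one of 0.966 to 0.972. The r of IgG1 library 1 was 0.944 and 0.949 with the other IgG1 libraries and higher, 0.954 to 0.960, with the IgM libraries. The lowest r within IgG1, 0.930, was that of libraries 2 and 3. Their r with the IgM libraries was 0.917 to 0.939. Without IgG1 library 1 the differences of the called members were 1.74 for Mcl1, 1.11 for Bcl2l1 and -1.29 for Bcl2l11. All were still past the threshold (limma adjusted p = 0.0301, 0.0426 and 0.00999). The IgG1 libraries held relatively less of long transcripts (Spearman rho of a library's deviations with length, -0.24 to -0.15 in IgG1 and 0.15 to 0.30 in IgM). Between 74 and 288 of the tested genes were listed at 0 in an IgG1 library and 27 to 60 in an IgM library, so a 0 below is a listed value and not proof of absence.

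Plasma cell markers far exceeded the other marker lists in every library. The summed FPKM of 8 markers, Xbp1, Mzb1 and Jchain foremost, was 36772 to 39346 in IgG1 and 44301 to 50167 in IgM. Of the 8, 5 passed the threshold as lower in IgG1 (1.76% of all tested genes did). These were Jchain (means 15800 FPKM in IgG1 and 26800 in IgM), Prdm1 (21.3 and 44.3), Irf4 (55.3 and 92.3), Slamf7 and Tnfrsf17. Slamf7 averaged 113 FPKM in IgG1 and 170 in IgM, and Tnfrsf17 81.9 and 623. Xbp1 (6640 and 5580 FPKM), Mzb1 (15100 and 13300) and Sdc1 (532 and 494) averaged higher in IgG1 and did not pass. Of the mature B cell markers, Pax5 was at 0 in all 6 libraries, and Ms4a1 was at 45.9, 66.4 and 59.7 FPKM in IgG1 and 61.1, 70.5 and 64.6 FPKM in IgM (limma adjusted p = 0.559). The sum of 9 myeloid markers was 0.38 to 6.68 in IgG1 and 6.96 to 11.8 in IgM, with S100a8 and S100a9 at 0 throughout. Of the 2 tested myeloid markers, Lyz2 and Csf1r, 0 passed the threshold with limma (2 at unadjusted p under 0.05). Lyz2 was at 5.07, 0.160 and 0.309 FPKM in IgG1 and 4.89, 4.77 and 8.44 FPKM in IgM. Csf1r was at 0, 0 and 0.0162 FPKM in IgG1 and 2.14, 1.11 and 1.565 FPKM in IgM. T cell markers summed to 1.13 to 4.44 in IgG1 and 1.12 to 2.69 in IgM, with Lat and Bcl11b at 0 throughout, and NK cell markers summed to at most 0.02 in IgG1 and 0.41 in IgM. Erythroid and platelet markers summed to 0.88 to 2.77 in IgG1 and 0.57 to 2.52 in IgM, and stromal and endothelial markers to 5.28 to 11.02 and 6.27 to 7.80, nearly all of it Pecam1. The part that the plasma cell, myeloid or length differences play in the results below was not tested. In bulk RNA, fewer cells that express a gene and less RNA per cell cannot be told apart.

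Of the 10 genes, 9 passed the filter and 3 passed the threshold, 2 of them higher (4.26% of all tested genes were) and 1 lower (1.76% of all). The pro-survival genes Mcl1 and Bcl2l1 were higher in IgG1 plasma cells, 2.84-fold and 2.27-fold by mean FPKM, and the BH3-only gene Bcl2l11 was 2.49-fold lower. The other 6 tested genes, among them both pore-forming genes, did not pass the threshold, and Bcl2 stayed below 1 FPKM in every library.

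Mcl1 (chromosome 3, 95658788 to 95663176 in GRCm38, plus strand, protein-coding) encodes a short-lived pro-survival protein. Its FPKM was 96.5, 115 and 118 in IgG1 libraries 1 to 3, against 23.5, 24.8 and 67.5 in IgM libraries 1 to 3. The groups did not overlap, and IgM library 3 stood well above the other two IgM libraries. The means were 110 ± 11.6 FPKM in IgG1 and 38.6 ± 25.0 FPKM in IgM (SD, n = 3 each). A separation of the groups without overlap was found for 27.2% of all tested genes. The difference was 1.65 (SE 0.32, 95% interval 0.95 to 2.35, limma adjusted p = 0.0135), in which 3 of 3 IgG1 libraries exceeded every IgM library. Without IgM library 3 it was 2.13 (limma adjusted p = 0.00014). It missed the threshold without IgG1 library 2 (limma adjusted p = 0.0591), IgG1 library 3 (0.0566) or IgM library 1 (0.0688).

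Bcl2l1 (chromosome 2, 152780668 to 152831728, minus strand, protein-coding) encodes BCL-XL as its long splice form. The FPKM per gene symbol does not separate this form from the short, pro-apoptotic BCL-XS. It was at 44.6, 33.3 and 56.7 FPKM in the IgG1 libraries, against 17.2, 18.9 and 23.1 FPKM in the IgM libraries. Again no IgG1 library fell as low as the highest IgM library, although the IgG1 values were the more spread. The difference was 1.12 (SE 0.24, 95% interval 0.61 to 1.64, limma adjusted p = 0.0197). It missed the threshold without IgG1 library 3 (0.94, limma adjusted p = 0.0634), IgM library 1 (1.03, 0.101) or IgM library 2 (1.10, 0.0547). The rescaling without Jchain gave 0.90 for Bcl2l1 and 1.42 for Mcl1, both still past the threshold (limma adjusted p = 0.0431 and 0.0253).

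Bcl2 (chromosome 1, minus strand), the founding pro-survival member, was listed at 0.00842, 0 and 0.654 FPKM in the IgG1 libraries and at 0.892, 0.493 and 0.859 FPKM in the IgM libraries. All 6 values lay below the filter, so no test was made. At the estimated depth 1 fragment of this transcript corresponds to about 0.012 FPKM, so the value in IgG1 library 1 is less than 1 fragment. Mcl1 made up 67.3% to 77.5% of the summed FPKM of the 3 pro-survival genes in IgG1 and 56.1% to 73.8% in IgM, and Bcl2l1 nearly all of the rest.

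**Figure D1:**
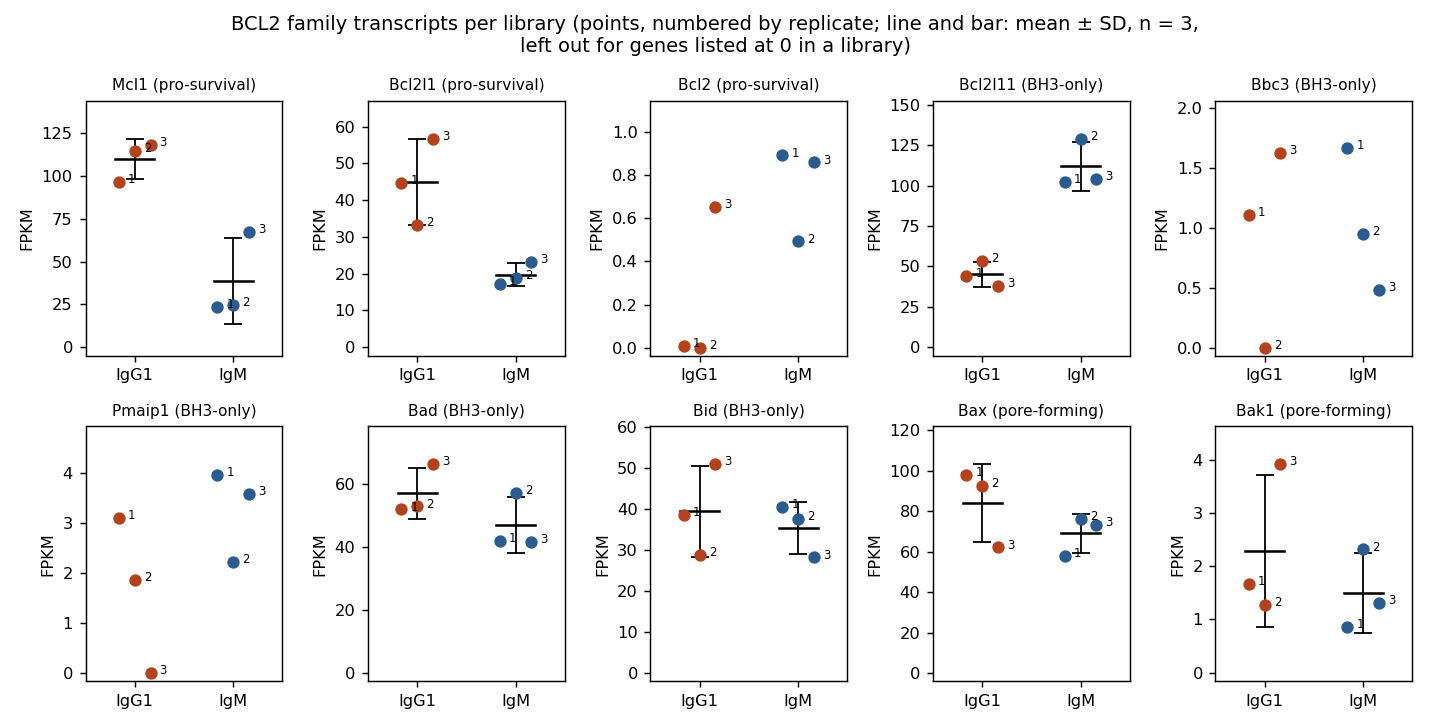
FPKM (vertical axes, linear, a scale of its own for each gene) of the 10 genes in each library, IgG1 in red and IgM in blue, with points numbered by replicate, and the mean ± SD of 3 libraries for genes that no library lists at 0. Mcl1 (96.5 to 118 against 23.5 to 67.5) and Bcl2l1 lie higher and Bcl2l11 lower in all 3 IgG1 libraries, and the groups overlap for the other 7 genes.

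Among the BH3-only genes, Bcl2l11 (chromosome 2, 128126038 to 128162547, plus strand, protein-coding) was at 44.1, 53.3 and 37.7 FPKM in the IgG1 libraries, against 102, 129 and 104 FPKM in the IgM libraries. All 3 IgG1 libraries lay far below the lowest IgM library, with means of 45.0 ± 7.82 FPKM in IgG1 and 112 ± 14.9 FPKM in IgM (SD, n = 3 each). The difference was -1.30 (SE 0.17, 95% interval -1.68 to -0.92, limma adjusted p = 0.00389). By adjusted p it ranked 9th of the 9087 genes, a place shared at least with Jchain (limma adjusted p also 0.00389), whose unadjusted p was lower. It stayed past the threshold when any 1 library was left out (limma adjusted p 0.0083 to 0.0296). With each library's trend with transcript length and GC content removed, Bcl2l11 was at -1.15, Mcl1 at 1.61 and Bcl2l1 at 1.10 (limma adjusted p = 0.00657, 0.0223 and 0.0248). None of the 3 genes passed the threshold without the filter on low values or without limma's intensity trend, where the lowest adjusted p was 0.0907, for Bcl2l11, although all 3 had an unadjusted p under 0.05 in both fits.

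Bad and Bid were expressed at a level like that of Bcl2l11 in IgG1 cells, and their groups overlapped. Bad, whose protein binds BCL2 and BCL-XL when growth factor signals cease, was at 52.0, 53.0 and 66.5 FPKM in the IgG1 libraries and 42.0, 57.2 and 41.8 FPKM in the IgM libraries (difference 0.28, 95% interval -0.13 to 0.70, limma adjusted p = 0.42). Bid, whose protein is cut by caspase-8 and so links death receptors to mitochondria, was at 38.4, 28.8 and 51.0 FPKM in the IgG1 libraries and 40.4, 37.6 and 28.2 FPKM in the IgM libraries (0.13, 95% interval -0.39 to 0.65, limma adjusted p = 0.80). The intervals leave room for a change of up to about 0.7 on the log2 scale upwards in both. Exons of Bad overlap those of Gpr137, and strand use in counting is not stated, so its values are uncertain to that extent.

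The p53 targets Bbc3 and Pmaip1 were low. Bbc3 was listed at 1.11, 0 and 1.63 FPKM in the IgG1 libraries and at 1.67, 0.949 and 0.483 FPKM in the IgM libraries, which put its mean at percentile 1.3 of the tested genes, whereas that of Bcl2l11 was at percentile 84.3. Pmaip1 was listed at 3.11, 1.85 and 0 FPKM in the IgG1 libraries and at 3.97, 2.22 and 3.58 FPKM in the IgM libraries. Neither passed the threshold (Bbc3 -0.16, 95% interval -1.25 to 0.94, limma adjusted p = 0.888; Pmaip1 -0.88, 95% interval -2.07 to 0.31, limma adjusted p = 0.38). Both passed the filter only narrowly or with a library at 0, and their intervals span more than a 2-fold change. Trp53, which encodes p53 itself, averaged 41.3 FPKM in IgG1 and 31.9 FPKM in IgM (0.37, limma adjusted p = 0.272).

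Of the pore-forming genes Bax was abundant and Bak1 scarce. Bax (chromosome 7, minus strand) was at 97.7, 92.4 and 62.0 FPKM in the IgG1 libraries and 57.8, 76.0 and 73.0 FPKM in the IgM libraries. IgG1 library 3 lay within the IgM range and the other two above it (0.26, 95% interval -0.16 to 0.69, limma adjusted p = 0.477). Bak1 (chromosome 17, minus strand) was at 1.67, 1.27 and 3.93 FPKM in the IgG1 libraries and 0.855, 2.32 and 1.31 FPKM in the IgM libraries (0.36, 95% interval -0.67 to 1.38, limma adjusted p = 0.718). Bax made up 94.0% to 98.6% of the summed FPKM of both genes in IgG1 and 97.0% to 98.5% in IgM. Exons of Bax overlap those of Gm45808 and exons of Bak1 those of Ggnbp1, with the same uncertainty as for Bad.

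**Figure D2:**
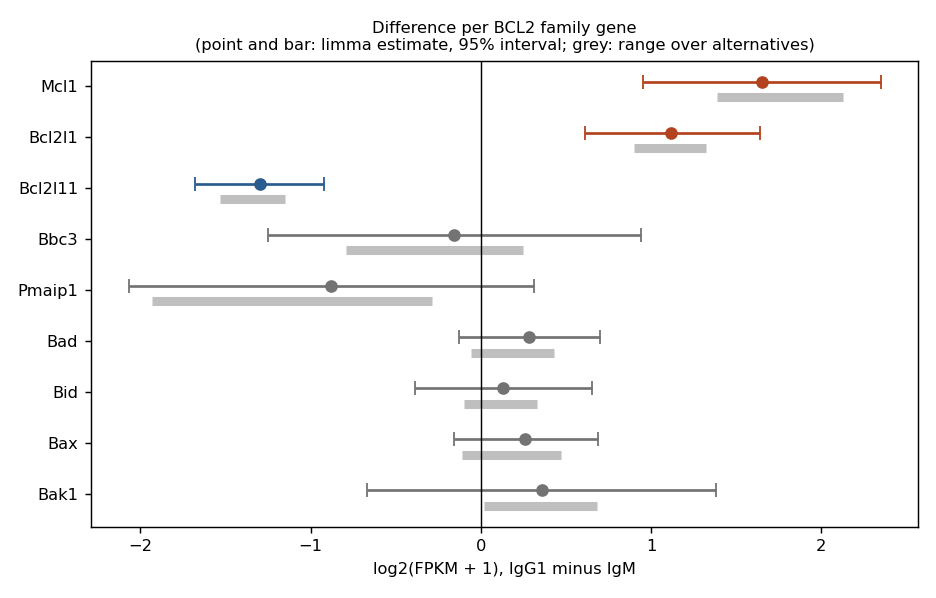
Difference in log2(FPKM + 1), IgG1 minus IgM (horizontal axis), for the 9 tested genes, with limma's estimate and 95% interval and, in grey, the range of the estimate over the alternative settings. Mcl1 (1.65) and Bcl2l1 (1.12), in red, and Bcl2l11 (-1.30), in blue, passed the threshold, and the other 6 intervals include 0.

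The order of the genes by level differed between the groups. In IgM plasma cells Bcl2l11 was the most abundant of the 10 and Bax the next in all 3 libraries, and the ranges of Bcl2l11, Bax and Bad did not overlap. Mcl1 lay below Bad and Bid in IgM libraries 1 and 2 but above both in IgM library 3, and its range overlapped those of Bax, Bad and Bid. In IgG1 plasma cells Mcl1 had the highest mean, followed by Bax, Bad, Bcl2l11, Bcl2l1 and Bid. Each of these neighbours in IgG1 overlapped the next in range, and 1 library each put Bax above Mcl1, Bad above Bax and Bcl2l11 above Bad. Bcl2l11 exceeded Bcl2l1 in 1 of the 3 IgG1 libraries, and Bid lay well above Bak1, Pmaip1, Bbc3 and Bcl2 in both groups.

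The balance of transcripts between the roles was described per library without a test, since it combines the same values. The summed FPKM of Mcl1, Bcl2l1 and Bcl2 was 141, 148 and 175 in IgG1 libraries 1 to 3, against 41.6, 44.2 and 91.5 in IgM libraries 1 to 3. The 5 BH3-only genes summed to 139, 137 and 157 FPKM in IgG1, against 190, 227 and 178 FPKM in IgM. The ratio of the pro-survival to the BH3-only sum was 1.02 to 1.12 in IgG1 and 0.195 to 0.513 in IgM. Bcl2l11 contributed 24.1% to 38.9% of the BH3-only sum in IgG1 and 53.7% to 58.5% in IgM. Mcl1 stood at 2.15 to 3.13 times the FPKM of Bcl2l11 in IgG1 libraries and at 0.192 to 0.646 times in IgM libraries. These are ratios of RNA, and protein was not measured.

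**Figure D3:**
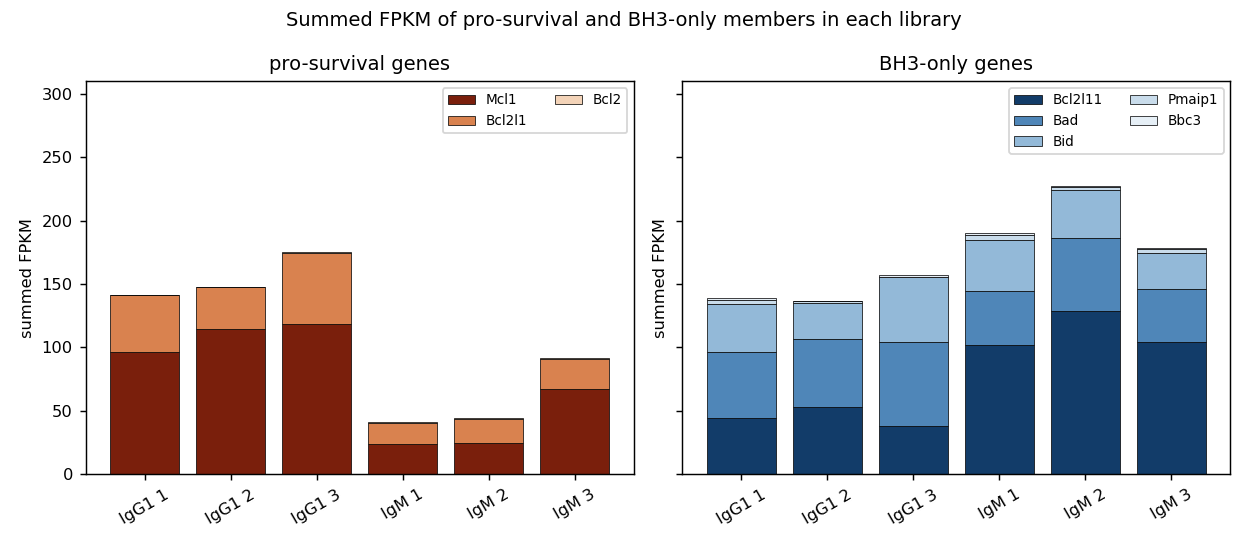
Summed FPKM (vertical axis) of the 3 pro-survival genes (left) and the 5 BH3-only genes (right) in each library, IgG1 libraries left of IgM libraries, with the share of each gene stacked. Pro-survival sums are 141 to 175 in IgG1 and 41.6 to 91.5 in IgM, and the darkest blue segment, Bcl2l11, is shorter in all 3 IgG1 bars.

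The genes most like each changed member were found by Pearson r of log2(FPKM + 1) over the 6 libraries among 8644 named genes. With 6 libraries and a group difference, many genes reach a high r, and the values are given as a description. Nearest to Mcl1 were Gnb1 (r = 0.997), Alyref (0.996) and Mtch1 (0.995), which encode a G protein subunit, an mRNA export adaptor and a mitochondrial outer membrane protein. They shared its split among the IgM libraries. Alyref, for example, was at 174, 198 and 233 FPKM in the IgG1 libraries and 6.80, 8.49 and 95.1 FPKM in the IgM libraries. In all, 72 genes had an r of at least 0.95 with Mcl1, 77 with Bcl2l1 and 58 with Bcl2l11. Nearest to Bcl2l1 were Apobec1 (0.994), Agpat3 (0.993) and Lime1 (0.988). Nearest to Bcl2l11 were Tirap (0.993), the antisense transcript Kcnmb4os2 (0.992), whose values cannot be told from its sense partner without strand, and Srpr (0.990).

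The wider pathway was covered by 74 further symbols in 7 lists, of which 73 were measured and 61 tested. With limma 0 of these were higher and 3 lower (4.26% and 1.76% of all tested genes were). At unadjusted p under 0.05, 6 of the 61 were higher and 7 lower, where the share of all tested genes was 11.9% higher and 10.2% lower, so these counts were near the background. Their median difference was -0.06, close to that of all genes (-0.05). The 3 were Usp9x and the receptor genes Tnfrsf17 and Tnfrsf13b.

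Other members of the BCL2 family were mostly low. Of 16, 7 stayed below 1 FPKM in every library, among them Bcl2l2, Bok and Hrk, and 7 were tested with 0 calls by limma (also 0 at unadjusted p under 0.05). The most abundant were Bnip3l, a mitophagy receptor, at 26.3, 22.3 and 26.6 FPKM in IgG1 and 31.2, 35.1 and 35.8 FPKM in IgM (-0.43, limma adjusted p = 0.227), and Bcl2l13, at a mean of 8.77 FPKM in IgG1 and 9.31 FPKM in IgM (-0.09, 0.895). Bcl2a1b, a copy of the pro-survival gene for A1, was at 5.63, 11.3 and 5.97 FPKM in IgG1 and 4.96, 8.11 and 8.46 FPKM in IgM. Its near-identical copies share reads, so these values are uncertain. The BH3-only gene Bmf was at 1.97, 0.868 and 3.56 FPKM in IgG1 and 2.45, 1.09 and 2.96 FPKM in IgM.

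Downstream of the mitochondria, 0 of 12 apoptosome and caspase genes passed the threshold with limma (2 higher and 0 lower at unadjusted p under 0.05, list median 0.01). Cycs, which encodes cytochrome c, was at 190, 248.9 and 236 FPKM in IgG1 and 165, 191 and 182 FPKM in IgM (0.32, 95% interval 0.03 to 0.61, limma adjusted p = 0.19). Its pseudogene copies may share reads. Casp8 averaged 30.6 FPKM in IgG1 and 36.3 FPKM in IgM (-0.24, 0.502). Of 7 inhibitor of apoptosis genes and their antagonists 0 passed (0 higher and 1 lower at unadjusted p under 0.05, median -0.05). The most abundant were Birc5, which encodes the mitotic protein survivin (295 FPKM in IgG1 and 265 in IgM, limma adjusted p = 0.498), and Diablo, which encodes an antagonist released with cytochrome c (64.2 and 66.6, 0.905). All 8 outer membrane partners had a positive difference (median 0.25), and 0 passed (2 higher at unadjusted p under 0.05). Their median was 0.02, with 5 of 8 positive, after rescaling without Jchain, and 0.09, with 6 positive, after quantile normalization. The most abundant were Bcap31 (520.0 FPKM in IgG1 and 449 in IgM) and Tmbim6 (372 and 347).

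Among 10 tested genes that control turnover or binding of MCL1 and BIM protein, 1 was lower and 0 were higher (1.76% and 4.26% of all tested genes were). At unadjusted p under 0.05 with limma, 3 were lower and 1 was higher. The list median was -0.28, with 8 differences negative and 2 positive. The groups did not overlap for 6 of the 10 genes, against 27.2% of all tested genes (13.7% higher and 13.5% lower). Of the 6, Dynll1 was higher in IgG1, and Usp9x, Huwe1, Fbxw7, Btrc and March5 were lower. Usp9x, which encodes a deubiquitinase known to stabilise MCL1, was at 4.44, 3.85 and 2.08 FPKM in the IgG1 libraries, against 12.5, 10.3 and 11.6 FPKM in the IgM libraries (-1.52, SE 0.36, limma adjusted p = 0.0327). All 3 IgG1 values lay below all IgM values. Its transcripts are long (median 11887 nt), and with the length and GC trend removed it was at -1.02 and no longer past the threshold (limma adjusted p = 0.128). It also missed the threshold in 5 of the 6 fits that left out 1 library (limma adjusted p 0.034 to 0.171). Of the genes for MCL1 ubiquitin ligases or their subunits, 4 were tested and 0 passed, and Trim17 was listed at 0 throughout. Each of the 4 was lower in every IgG1 library than in any IgM library. March5 averaged 59.1 FPKM in IgG1 and 71.6 FPKM in IgM (limma adjusted p = 0.346), Fbxw7 6.71 FPKM in IgG1 and 15.6 FPKM in IgM (limma adjusted p = 0.0569), Btrc 0.724 and 3.32 (0.0785), and Huwe1 2.18 and 4.76 (0.227). Huwe1 transcripts are also long (median 14373.5 nt). Dynll1, whose product is a dynein light chain that binds BIM, was at 201 FPKM in IgG1 and 162 FPKM in IgM (limma adjusted p = 0.18).

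Of 14 tested genes for transcription factors and a partner that act on BCL2 family genes, 0 passed the threshold with limma (1 higher, E2f1, and 0 lower at unadjusted p under 0.05, median -0.08). Foxo1 and Foxo3, whose products are known activators of Bcl2l11 and Bbc3, were low. Foxo1 was at 5.97, 4.67 and 10.7 FPKM in IgG1 and 2.82, 4.61 and 11.3 FPKM in IgM (limma adjusted p = 0.792). Foxo3 was at 1.73, 0.370 and 0.717 FPKM in IgG1 and 2.81, 2.42 and 2.07 FPKM in IgM (-0.88, 0.271). The most abundant were Atf4 (93.9 FPKM in IgG1 and 104 in IgM, 0.694) and Rela (48.6 and 48.4, 0.969).

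The receptors for the survival factors BAFF and APRIL were lower as single genes in 2 of 3 cases (1.76% of all tested genes were lower). Tnfrsf17, which encodes BCMA, was at 67.4, 81.2 and 97.0 FPKM in the IgG1 libraries, against 568, 713 and 587 FPKM in the IgM libraries (-2.92, limma adjusted p = 1.23e-06). Tnfrsf13b, which encodes TACI, was at 140, 133 and 92.9 FPKM in the IgG1 libraries, against 223, 179 and 177 FPKM in the IgM libraries (-0.68, limma adjusted p = 0.04), and passed the threshold in 7 of the 16 alternatives. It missed it in 5 of the 6 fits without 1 library, and also with medians centred (limma adjusted p = 0.056), a pseudocount of 0.1 (0.0559), no filter (0.403) or no intensity trend (0.205). The remaining gene, Tnfrsf13c, averaged 39.9 FPKM in IgG1 and 55.0 FPKM in IgM, with overlapping groups (-0.44, limma unadjusted p = 0.0441, adjusted p = 0.212). The higher Mcl1 RNA in IgG1 libraries was measured beside lower Tnfrsf17 RNA in the same libraries. Signalling through the receptor was not measured, and a link between the RNA levels was not tested.

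**Figure D4:**
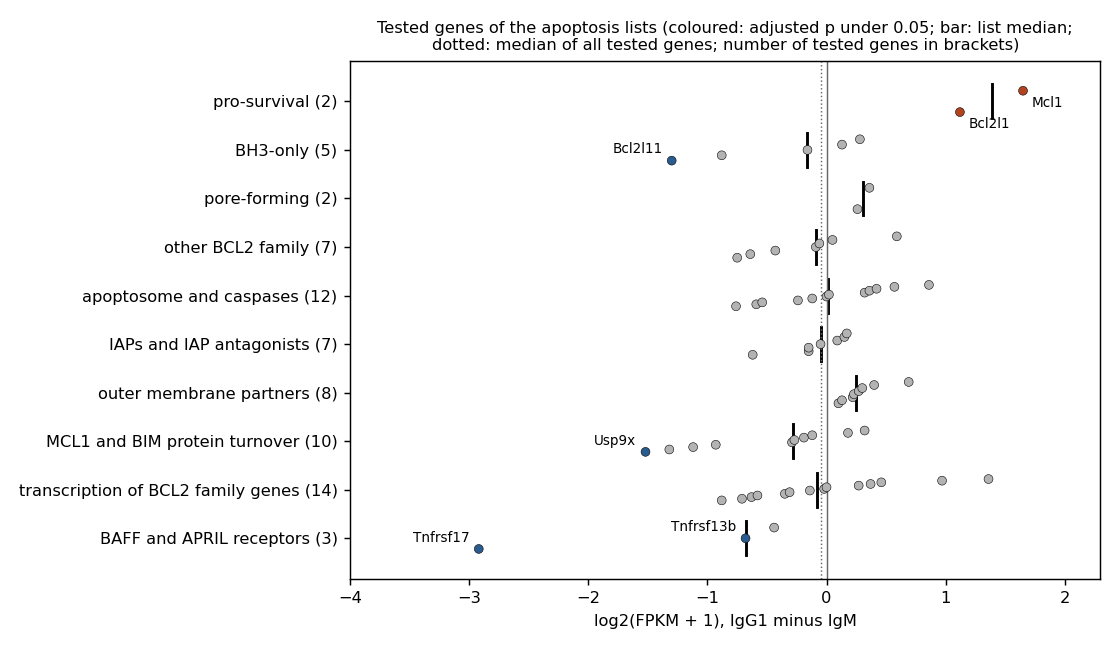
Difference in log2(FPKM + 1), IgG1 minus IgM (horizontal axis), of every tested gene of the 3 roles and the 7 further lists (rows, with the number tested), coloured and named where the adjusted p was under 0.05, with list medians as bars. Mcl1 and Bcl2l1 lie to the right, Bcl2l11, Usp9x, Tnfrsf17 and Tnfrsf13b to the left, and the medians of most other lists lie near that of all tested genes (-0.05, dotted).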

How the data were processed

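RNA of 6 libraries was prepared with a miRNeasy Micro kit, SMART-Seq HT cDNA and Nextera XT tagmentation, per the labels' protocols. The submitters' processing notes name the build mm10 with Cuffdiff, Cufflinks 2.2.1, Bowtie2 2.3.5.1 and TopHat2 2.1.1. No label or header states the annotation, the scaling between libraries or strand use. The authors deposited 1 FPKM per symbol and library, per the file headers. FPKM depends on library composition and on how evenly long transcripts were covered. Of the symbols used here 0 name an immunoglobulin chain, so the isotype of a library rests on its label.

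FPKM were analysed as deposited. Genes with FPKM of at least 1 in at least 3 libraries were tested on log2(FPKM + 1) with limma 3.58.1 in R 4.3.3 (eBayes with an intensity trend, threshold 0.05 after Benjamini-Hochberg adjustment). Since separate mice are not stated, p-values rest on library-to-library spread, which may be technical. Lengths, GC content and positions came from GENCODE vM21 (GRCm38, which mm10 names), with a length for 95.7% of symbols, and promoters from RefSeq. Protein sequences were not used here. Depth was estimated from the smallest step of FPKM times length and is approximate.

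The members and lists were chosen with earlier results of these data known. The rule for named genes took the members, every list gene past the threshold or else the 2 most abundant of a list, and the 3 genes nearest to each changed member. Bcl2a1b, Bmf, March5, Trim17, Fbxw7, Btrc, Huwe1, Dynll1, Foxo1, Foxo3, E2f1, Trp53, Tnfrsf13c, Bcl2l2, Bok and Hrk fall outside it and were picked with their values in view. Alternatives changed the scaling (medians centred, quantile normalization, libraries rescaled without Jchain), the filter (5 FPKM or none), the pseudocount (0.1 or 5) and the model (no intensity trend, or a replicate block). Others removed each library's length and GC trend (splines with 4 degrees of freedom) or left out 1 library at a time.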

Additional observations from a re-analysis of the deposited data

How the results depend on the processing

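Mcl1 and Bcl2l1 stayed higher and Bcl2l11 lower in all 16 alternatives, at 1.39 to 2.13, 0.90 to 1.32 and -1.53 to -1.15 (limma adjusted p 0.00014 to 0.371, 0.0127 to 0.25 and 0.000961 to 0.164). They were past the threshold in 11, 11 and 14 of these. Without the filter, 0 of the 10 members were called higher and 0 lower, and over all genes 5 were called higher and 9 lower. Without the intensity trend it was again 0 and 0 members, and 3 and 5 of all genes. In both fits 3 members had an unadjusted p under 0.05 (2136 and 1725 of all genes). The adjustment ran over 24346 genes without the filter and over 9087 without the intensity trend. The cause of the lost calls was not tested. Counts of all genes higher and lower in IgG1, 387 and 160 as reported, were 177 and 393 with libraries rescaled without Jchain, and 179 and 81 with the length and GC correction (8765 genes). Quantile normalization gave 188 higher. These causes were not tested either. Leaving out each library in turn gave 78 to 394 genes higher and 30 to 251 lower, and 0 to 2 members higher and 1 lower. All calls together fell from 547 to 174 without IgG1 library 2, to 200 without IgG1 library 3, to 108 without IgM library 1 and to 230 without IgM library 3. With the replicate block 432 genes were higher, and 2 members were higher and 1 lower. Same-numbered libraries of the groups did not deviate together (r = 0.101, -0.031 and -0.001), and not every library correlated best with its own number, so the numbers were not taken to pair libraries. Depth limits Bcl2, Bbc3, Pmaip1 and Bak1, for which the lowest library held at most about 23 fragments.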

Other observations

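A list of 8 immediate early genes, which respond within a short time to stimulation or handling of cells, varied between libraries of the same group. Its summed FPKM was 165, 43.4 and 82.8 in IgG1 libraries 1 to 3 and 297, 79.4 and 80.5 in IgM libraries 1 to 3, highest in library 1 of each group. Fos was at 21.0, 0.568 and 1.26 FPKM in IgG1 and 51.0, 1.80 and 7.89 FPKM in IgM, and Jun at 46.6, 3.87 and 13.5 FPKM in IgG1 and 99.5, 20.7 and 19.9 FPKM in IgM. With limma 0 of the 6 tested genes of the list passed the threshold, and 0 had an unadjusted p under 0.05. The part of cell handling in the differences of the BCL2 family genes was not tested.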
